A study of Homo sapiens with 6 samples.

Results

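The genes described here are 41 genes of NF-kB signalling and of cytokine and chemokine production, followed in RCC4, a VHL-deficient line from a human clear cell kidney cancer, with RNA sequencing as the readout. They were taken as a list of NF-kB factors, cytokines, chemokines and their receptors from a table of 60683 Ensembl genes. The rule holds no measured value, but the list was chosen with earlier results of these data known. All 41 were found by symbol, and 37 had enough reads to be tested. The cells were either the parental line, given the genotype wild type in the labels, or the same line with ATF4 knocked out, with 3 samples in each group. The labels name no treatment and do not say how ATF4 was disrupted, whether the knockout line is 1 clone, or whether the 3 samples of a group were separate cultures, so p-values cover only the variation among these libraries, part or all of which could be technical. ATF4 is the transcription factor that raises stress response and amino acid genes when translation is slowed by phosphorylation of eIF2.

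NF-kB is a family of dimeric transcription factors that is held in the cytoplasm by IkB proteins until kinases downstream of TNF, IL-1 or Toll-like receptors mark the IkB proteins for destruction. The released dimers bind the kappaB element and turn on cytokines, chemokines, adhesion molecules and survival factors, and also their own inhibitors, which closes a feedback loop. Tubular epithelium and renal carcinoma cells are known sources of IL-6, CXCL8 and related factors, and the IL-6 family cytokines act through receptors that share the gp130 subunit IL6ST and through JAK and STAT proteins, with SOCS proteins as inhibitors.

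ATF4 mRNA itself was still present in the knockout samples. Its counts were 10413, 11037 and 10219 in parental samples 1, 2 and 3 and 8628, 10386 and 9895 in the knockout samples, a log2 fold change of -0.19 (adjusted p = 3.19e-07). After subtraction of the median of the tested genes around it on chromosome 22, which was -0.25, ATF4 stood at 0.06 (adjusted p = 0.0853). The mRNA level does not show whether the protein was made. Libraries held 41002611 to 46755358 counts, and 3 counts in a library, the most that a count of 0 allows, were worth 0.0642 to 0.0732 CPM, where CPM is the share of a library's counts scaled to a common depth (counting error only). Chi-square per degree of freedom between samples was 3.59 to 5.8 within a group and 37.9 to 44.1 between groups, so all 6 were kept as separate samples. Parental sample 1 stood apart in interferon response genes, with a mean score of 0.441 on the log2 scale. The score was -0.118 to -0.113 in the other parental samples and -0.167 to -9.58e-05 in the knockout samples. It was averaged over those of 16 listed genes that had enough counts summed over all samples. Of 15 renal and clear cell carcinoma markers 14 were tested. The summed level of the list was 6600 to 6960 CPM in the parental and 7220 to 7430 CPM in the knockout samples. Such a sum follows the most abundant genes. By gene, 5 were called higher (35.7%, against 21.2% of all tested genes) and 6 lower (42.9%, against 20.8%) at adjusted p under 0.05. Their median log2 fold change was -0.056. Of 16 leukocyte markers 4 were tested and 2 were called higher, with summed levels of 4.05 to 4.39 and 8.12 to 8.94 CPM. Defining markers such as CD3E, MS4A1, CD14, CD163, FCGR3A, NKG7 and TYROBP had no counts. None of 7 endothelial markers was tested, and their sums were 0.207 to 0.296 and 0.292 to 0.452 CPM. Of 9 fibroblast and pericyte markers 3 were tested and all 3 were called lower. The sums of this list were 105 to 125 CPM in the parental and 91.9 to 94.3 CPM in the knockout samples. The tested leukocyte and fibroblast markers are too few to set against the share of all genes. The part of these lists in the results below was not tested.

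The kappaB element is the sequence that NF-kB binds, and its matches near the start sites are shown here because several of the results concern genes that carry it. RefSeq promoter windows (GRCh38.p14) of 250 bases before and 50 bases after the start of transcription were found for 32 of the 41 genes. A match to the kappaB consensus on either strand occurred in the windows of 16 of these 32 genes, in 19 of their 51 windows (37.3%), and in 11.3% of all 35116 windows. For each gene, the nearest match upstream of the start is given on the strand of the gene, with 10 bases on either side and the matched bases in capitals. The genes higher in the knockout samples come first, then those lower, then those with no difference called and the 1 not tested.
NFKB1 (chr4:102501300-102501329): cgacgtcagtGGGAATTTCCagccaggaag
NFKB2 (chr10:102395674-102395703): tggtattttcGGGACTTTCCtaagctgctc
NFKBIA (chr14:35404811-35404840): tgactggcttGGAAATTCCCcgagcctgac
IL32 (chr16:3065295-3065324): ctgtactcagGGAGTTTCCCcagccagctg
TNFAIP3 (chr6:137867194-137867223): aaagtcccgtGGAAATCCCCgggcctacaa
IL6 (chr7:22727117-22727146): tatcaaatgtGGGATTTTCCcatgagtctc
IL6ST (chr5:55994997-55995026): gcgggattggGGAGCGCCCCgccccgccgc
LTB (chr6:31582492-31582521): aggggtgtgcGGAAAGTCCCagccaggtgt
NFKBIB (chr19:38899932-38899961): ggcgtggtggGGAATTTCCCgcagggcgga
NFKBIZ (chr3:101827757-101827786): tttttggtctGGGAATTTCCagtgtgcaga
BIRC3 (chr11:102317339-102317368): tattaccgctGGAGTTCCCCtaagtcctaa
CXCL1 (chr4:73869305-73869334): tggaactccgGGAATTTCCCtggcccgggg
CXCL2 (chr4:74099253-74099282): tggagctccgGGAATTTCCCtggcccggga
CXCL3 (chr4:74038748-74038777): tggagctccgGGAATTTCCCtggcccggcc
CXCL5 (chr4:73998748-73998777): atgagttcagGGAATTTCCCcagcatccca
CCL20 (chr2:227813753-227813782): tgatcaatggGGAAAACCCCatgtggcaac

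The word GGGAATTTCC, on one strand or the other, was found in the windows of 8 of these genes, namely NFKB1, NFKBIA, NFKBIB, NFKBIZ, CXCL1, CXCL2, CXCL3 and CXCL5. In NFKBIB and the CXC chemokines it overlapped the printed match by all but 1 base. The windows of CXCL1 and CXCL2 shown above shared 28 of 30 bases, while those of CXCL1 and CXCL5 shared 17. NFKB2 had 5 matches, the most of any of the genes. Matches were pooled over the windows of a gene and counted by position, so they are not distinct elements. In NFKB2 the match at -107 to -98 from the start overlapped the one at -106 to -97. The kappaB match was found among genes of both directions. It was present in 4 of 6 genes higher in the knockout samples, in 4 of 12 lower ones with a window, and in 7 of 10 with no difference called. An AP-1 site (TGANTCA on either strand) was found in 7 of the 51 windows, those of OSMR, IL11, CXCL8, NFKBIB, IL6R and IL1A, against 7.71% of all windows. The composite element bound by ATF4 with C/EBP proteins (TGATGNAA on either strand) was in none of the 51 windows and in 3.62% of all windows. No kappaB match overlapped either of the other motifs. A match describes the letters and not a bound site. Each motif was searched as an exact pattern within these windows only, so an element that differs or lies elsewhere would be missed.

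Most of the 41 genes changed little. Of 37 tested genes, 6 were higher and 15 were lower in the knockout than in the parental samples (edgeR quasi-likelihood test, Benjamini-Hochberg adjusted p under 0.05 over all 15321 tested genes). Among all tested genes 21.2% were higher and 20.8% were lower, against 16.2% and 40.5% of these genes. The median log2 fold change, knockout over parental, was 0.008 both for these genes and for all tested genes, and the median absolute log2 fold change was 0.163 and 0.161. IL18, counted among the lower genes, passed the filter through the parental samples alone, and without it 14 of 36 tested genes were lower (38.9%), with a median of 0.03. The absolute log2 fold change was under 0.3 for 30 of the 37, and 1 gene, IL18, changed by at least 1. Without parental sample 1, the library that stood apart in interferon genes, 6 were higher and 13 lower of 37 tested. Over all genes that fit called 2791 higher and 2803 lower of 15652 tested, against 3244 and 3184 of 15321 with all samples. Where the groups of a called gene are said below not to overlap, the call rests on the same values, so this adds no support. The share of all tested genes whose groups did not overlap was not counted. In bulk RNA a lower level in each cell and fewer cells with the transcript cannot be told apart.

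**Figure D1:**
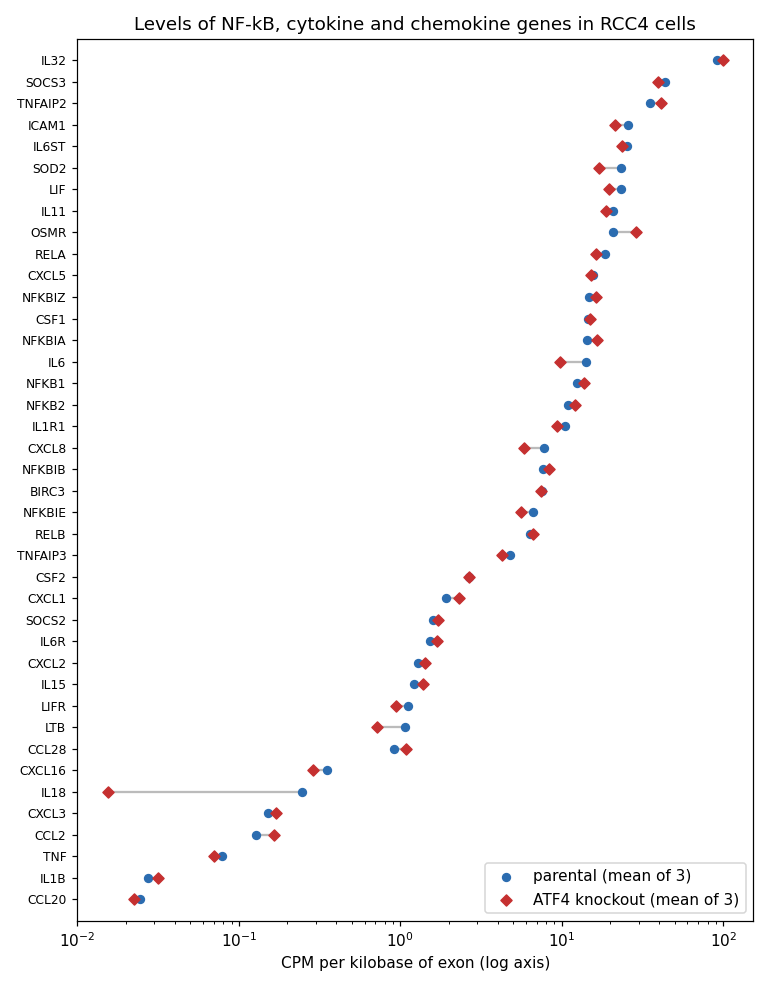
Mean level of each gene in CPM per kilobase of annotated exon (log axis) in the parental (circles) and ATF4 knockout (diamonds) samples, 3 samples each. IL32 was highest at 92.0 in the parental samples. IL1A, with no counts, is not drawn, and IL18 is the gene whose points lie farthest apart.

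Per kilobase of exon, the most abundant of these transcripts in the parental samples was IL32, an inducible proinflammatory interleukin, at a mean of 92.0 CPM per kilobase. SOCS3 followed at 43.6, TNFAIP2 at 35.0, ICAM1 at 25.7, IL6ST at 25.4, SOD2 and LIF at 23.2 each, IL11 at 20.8 and OSMR at 20.7 CPM per kilobase. The lengths are unions of all annotated exons, so a gene with long or rarely used exons, such as SOD2 with 16493 bases, is placed low. At the other end stood TNF and the IL-1 ligands, which induce the pathway, and the chemokine CCL20. IL1A had no counts in any sample, IL1B had 3 to 5 counts, TNF 3 to 8 and CCL20 0 to 5 counts per sample, and these 4 genes were not tested. Transcripts of receptors, inhibitors and effectors were thus measured at far higher levels than those of TNF and both IL-1 ligands, whose counts were close to the 3 counts that an empty library allows.

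Among the 4 DNA-binding subunits on the list, which does not hold the whole family, NFKB1 and NFKB2 were higher and RELA was lower, all by small amounts. NFKB1, which encodes p105 and p50, was at 81.2, 77.4 and 74.7 CPM in the parental samples and 89.8, 82.3 and 85.2 CPM in the knockout samples (log2 fold change 0.14 ± 0.0376 SE, adjusted p = 0.0018). NFKB2, which encodes p100 and p52, was at 48.2, 49.8 and 50.2 against 52.4, 54.7 and 53.7 CPM (0.12 ± 0.0426, adjusted p = 0.0212). In both genes all knockout samples lay above all parental samples. RELA, the p65 subunit that carries the main activation domain, was at 98.8, 104 and 98.6 CPM in the parental samples and 88.6, 88.5 and 87.8 CPM in the knockout samples (-0.19 ± 0.0339, adjusted p = 7.64e-06). The 3 knockout values lay close together and below every parental value. RELB, the partner of p52 in the non-canonical pathway, overlapped between groups at 18.3 to 20.3 and 19.5 to 21.3 CPM (0.07, adjusted p = 0.374).

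Genes around the subunits shifted in the same directions as the subunits. The median log2 fold change of the nearest 50 tested genes on each side of RELA (chr11:65653596-65663094 on GRCh38) was -0.15, against -0.19 for RELA itself, and the medians around NFKB1 and NFKB2 were 0.06 and 0.05, smaller than the changes of 0.14 and 0.12 in these genes. Once this local median was subtracted from every gene, RELA stood at -0.04 (adjusted p = 0.414), NFKB1 at 0.08 (adjusted p = 0.11) and NFKB2 at 0.07 (adjusted p = 0.241). None of the 4 listed subunits was then called. Over all the genes described, 6 were then higher and 12 lower, where 17.9% and 18.2% of all tested genes were called. Chromosome copy number was not measured. The call of NFKB2 was also lost without parental sample 1 (adjusted p = 0.0978), knockout sample 2 (0.0891) or knockout sample 3 (0.0511).

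The IkB proteins and A20 family, which hold NF-kB back, moved in both directions. NFKBIA, the IkB-alpha gene that NF-kB itself induces, rose from 34.2, 33.0 and 34.3 CPM to 39.7, 38.4 and 39.8 CPM (log2 fold change 0.22 ± 0.0486, adjusted p = 2.4e-04). NFKBIE, IkB-epsilon, fell from 16.6, 16.5 and 18 CPM to 13.6, 15.5 and 14.0 CPM (-0.24 ± 0.0712, adjusted p = 0.00454). TNFAIP3, the ubiquitin-editing inhibitor A20, was at 24.1, 24.1 and 24.2 CPM in the parental and 21.3, 21.3 and 22.4 CPM in the knockout samples (-0.16 ± 0.0577, adjusted p = 0.0258). In none of these 3 genes did the groups overlap. The TNFAIP3 call did not hold with the neighbours removed (adjusted p = 0.333), with scaling by total counts (0.0669), without the low-count filter (0.0638), or without parental sample 1 (0.0579) or 2 (0.0522) or knockout sample 1 (0.063) or 2 (0.0881).

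The bases before the NFKBIA start show how close its kappaB match lies to it, from 81 to 72 bases upstream, in a window (chr14:35404750-35404999, minus strand, RefSeq on GRCh38.p14) that contains no annotated exon of the gene. Matched bases are in capitals and the start follows the last base.
NFKBIA promoter: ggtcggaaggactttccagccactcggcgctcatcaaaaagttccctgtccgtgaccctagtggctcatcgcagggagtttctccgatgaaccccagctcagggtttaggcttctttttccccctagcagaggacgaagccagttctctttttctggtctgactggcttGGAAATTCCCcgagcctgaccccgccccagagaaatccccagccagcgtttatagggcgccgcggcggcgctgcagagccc

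The other IkB genes, NFKBIB and NFKBIZ, gave no call. NFKBIB, IkB-beta, was at 17.3 to 18.6 CPM in the parental and 18.9 to 20 CPM in the knockout samples (0.12, adjusted p = 0.125), and was called higher with the neighbours removed (0.17, adjusted p = 0.0344). Its exons overlap those of SIRT2 on the opposite strand, which had 14391 counts in all against 4922 for NFKBIB, and whose log2 fold change was -0.22. NFKBIZ, the nuclear protein IkB-zeta that helps to induce IL6, ranged from 82.0 to 92.2 CPM and from 85.4 to 107 CPM (0.14, adjusted p = 0.348). It was called higher without knockout sample 1 (adjusted p = 0.00858) and without the low-count filter (0.0484).

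Effectors induced by NF-kB showed 1 gene higher, 2 lower and 1 without a call, too few to set against the share of all genes. Together with the IkB and A20 genes above, 2 of 9 tested were higher (22.2%, near the 21.2% of all tested genes). In the same group 4 were lower (44.4%, against 20.8%). SOD2, the mitochondrial superoxide dismutase, was at 375, 389 and 382 CPM in the parental samples and 278, 270 and 286 CPM in the knockout samples, 1.37-fold lower (log2 fold change -0.46 ± 0.028, adjusted p = 2.78e-20). All 3 knockout samples lay far below the lowest parental sample. ICAM1, the adhesion molecule bound by leukocyte integrins, was at 95, 99.6 and 90.9 against 78.0, 79.0 and 80.4 CPM, 1.2-fold lower (-0.27 ± 0.0359, adjusted p = 1.14e-08). TNFAIP2, a TNF-induced protein linked to membrane protrusions, was at 177, 181 and 169 against 201, 208 and 215 CPM, 1.18-fold higher (0.24 ± 0.0301, adjusted p = 1.73e-09). Groups did not overlap for any of the 3, and each kept its call with the neighbours removed, at -0.38, -0.31 and 0.15. BIRC3, the caspase and RIP kinase regulator cIAP2, lay at 55.5 to 58.0 and 55.2 to 56.0 CPM (-0.02, adjusted p = 0.684), and with the neighbours removed stood at 0.11 (adjusted p = 0.0239). SOD2 shares exons with WTAP on the opposite strand, which had 31163 counts against 87039 and a log2 fold change of -0.02, and 9.15% of its 50-base words also occur in transcripts of other genes.

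**Figure D2:**
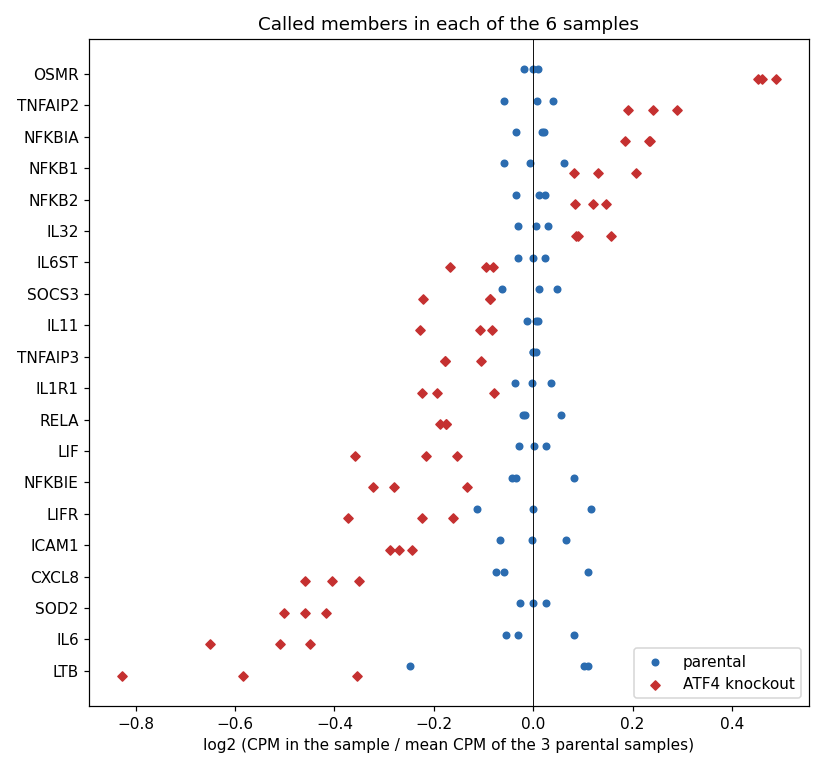
Level of 20 called genes in each sample as log2 of CPM over the mean of the 3 parental samples, with parental samples as circles and ATF4 knockout samples as diamonds. The circles and diamonds of a gene do not overlap in any of them, but the genes were picked by calls made on the same values. IL18, also called, is left out because 2 knockout samples had no counts.

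In the IL-6 family the 3 ligands were lower in the knockout samples and 1 receptor was higher. IL6, the acute phase cytokine, was at 28.1, 28.6 and 30.9 CPM in the parental samples and 18.6, 21.4 and 20.5 CPM in the knockout samples, 1.45-fold lower (log2 fold change -0.53 ± 0.0594, adjusted p = 7.15e-11). Every knockout sample lay below the lowest parental sample. LIF, which maintains stem cells and is induced in stressed epithelium, was at 92.3, 90.4 and 93.9 against 71.9, 82.9 and 79.4 CPM (-0.24 ± 0.0391, adjusted p = 2.58e-06). IL11, a fibrosis-associated ligand, was at 56.0, 55.1 and 55.8 against 47.5, 52.5 and 51.6 CPM (-0.14 ± 0.0432, adjusted p = 0.0076). All 3 ligands were lower in each knockout sample than in each parental sample, and in all 3 knockout sample 1 was the lowest. IL6 kept its call in all alternatives, IL11 lost it without knockout sample 1 (adjusted p = 0.0773), and LIF stood at 0.04 (adjusted p = 0.493) with the neighbours removed, as the median around it on chromosome 22 was -0.28. The exons of IL6 overlap those of an antisense transcript, IL6-AS1, with 502 counts in all against 6506 for IL6.

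Of the receptors, OSMR was higher and LIFR and IL6ST were lower. OSMR, which pairs with gp130 to bind oncostatin M, was at 147, 149 and 150 CPM in the parental samples and 205, 204 and 209 CPM in the knockout samples, 1.39-fold higher (log2 fold change 0.47 ± 0.0286, adjusted p = 2.53e-20). It was the largest rise among the called genes, and the samples of each group lay close together. LIFR, which pairs with gp130 to bind LIF, was at 13.2, 14.3 and 12.2 against 10.2, 11.3 and 11.8 CPM (-0.25 ± 0.0819, adjusted p = 0.00979). OSMR and LIFR lie 238 kilobases apart on chromosome 5 (chr5:38474963-38945596 on GRCh38) and changed in opposite directions. With the neighbours removed they stood at 0.34 (adjusted p = 1.35e-14) and -0.40 (adjusted p = 6.83e-05), while the LIFR call was lost without parental sample 2 (0.0919) or knockout sample 1 (0.0685). OSMR exons overlap those of RICTOR on the opposite strand, which had 7842 counts in all against 47069 for OSMR and a log2 fold change of 0.28.

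IL6ST, the shared gp130 subunit, was at 236, 231 and 240 CPM in the parental samples and 223, 210 and 221 CPM in the knockout samples (-0.11 ± 0.0289, adjusted p = 0.00123). The 3 knockout values were below the parental ones, and the difference was 1.08-fold. IL6R, the specific IL-6 receptor, was at 9 to 10.3 and 10.8 to 11.1 CPM (0.16, adjusted p = 0.133), so that its groups did not overlap although no difference was called. SOCS3, the feedback inhibitor of gp130 signalling, was at 120, 123 and 114 against 102, 112 and 112 CPM (-0.13 ± 0.0346, adjusted p = 0.00127), and SOCS2, which acts mainly on growth hormone signalling, ranged from 10.5 to 11.1 and from 10.6 to 12.6 CPM (0.10, adjusted p = 0.363). In all, 1 of the 9 genes of the IL-6 group was higher (11.1%, against 21.2% of all tested genes), 6 were lower (66.7%, against 20.8%) and 2 gave no call.

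IL18 had the largest change of the 41 genes and very few reads. This IL-1 family cytokine, which is activated by inflammasome caspases, had 19, 34 and 31 counts in parental samples 1, 2 and 3 and 5, 0 and 0 counts in the knockout samples. All 5 knockout counts came from 1 sample. Summed over samples and scaled to library size, the level was 17.2-fold lower in the knockout samples (7.08 to 54.3, exact 95% interval for counting error only). Because it entered the test through the group in which it was high, its p-value is not given as support, and without knockout sample 1 no reads were left in the knockout group. In CPM per kilobase the parental level was 0.247, among the lowest of the tested genes.

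Among the other interleukins and receptors, IL1R1, the signalling receptor for IL-1, was at 74.4, 72.6 and 76.4 CPM in the parental samples and 63.8, 70.5 and 65.1 CPM in the knockout samples (-0.16 ± 0.0393, adjusted p = 5.69e-04). IL32 was at 296, 301 and 289 against 329, 314 and 313 CPM (0.11 ± 0.0282, adjusted p = 0.00106). Neither gene had overlapping groups, and both kept their calls in all alternatives. IL15, which supports T and natural killer cells, was at 8.64 to 10.8 and 9.23 to 12.0 CPM (0.19, adjusted p = 0.107), and was called higher without parental sample 1 (0.0335) or knockout sample 2 (0.014).

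Of 8 tested chemokines 0 were higher (0%, against 21.2% of all tested genes) and 1 was lower (12.5%, against 20.8%). The other 7 gave no call, with few reads in CXCL3 (8 to 22 counts per sample) and CCL2 (9 to 16). CXCL8, the neutrophil attractant IL-8, was the 1 called chemokine, at 16.7, 16.9 and 19.0 CPM in the parental samples and 12.8, 13.3 and 13.8 CPM in the knockout samples, 1.32-fold lower (log2 fold change -0.40 ± 0.0718, adjusted p = 6.38e-06). The lowest parental sample was above the highest knockout sample, and the call held in every alternative. CXCL8 begins a cluster on chromosome 4 that spans 359 kilobases to CXCL2 (chr4:73740506-74099293 on GRCh38) and also holds CXCL1, CXCL5 and CXCL3, other ligands of the neutrophil receptor CXCR2. These had log2 fold changes of 0.28 (CXCL1, adjusted p = 0.186), -0.04 (CXCL5, 0.522), 0.16 (CXCL3, 0.796) and 0.16 (CXCL2, 0.501), with overlapping groups in each. The difference between CXCL8 and its neighbours in the cluster was not tested. CXCL5 was the most abundant of the cluster per kilobase, at 15.7 CPM per kilobase in the parental samples against 7.72 for CXCL8 and 1.93 for CXCL1.

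CXCL1 was at 2.30, 2.71 and 2.49 CPM in the parental and 2.19, 3.03 and 3.81 CPM in the knockout samples, and was called higher without knockout sample 1 (adjusted p = 0.03). CXCL1, CXCL2 and CXCL3 are close copies of each other, and 4.81%, 12.5% and 6.01% of their 50-base words occur in another of the 3, so their counts are uncertain. CCL2, the monocyte attractant MCP-1, was at 0.207 to 0.285 and 0.280 to 0.365 CPM (0.36 ± 0.436, adjusted p = 0.552). CCL28, a mucosal chemokine, was at 3.12 to 4.75 and 4.5 to 5.42 CPM (0.26, adjusted p = 0.114), and was called higher without parental sample 3 (0.0353). CXCL16, a membrane-bound chemokine and scavenger receptor, was at 0.864 to 1.07 and 0.655 to 0.990 CPM (-0.28, adjusted p = 0.439). It overlaps MED11 on the opposite strand, which had 4767 counts against its 234. CCL20, the ligand of CCR6, had 3, 0 and 2 counts in the parental and 0, 5 and 0 counts in the knockout samples.

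Of the colony stimulating factors and TNF ligands, LTB was called. LTB, lymphotoxin beta, a membrane ligand that activates the non-canonical NF-kB pathway, was at 1.77, 1.39 and 1.78 CPM in the parental and 1.29, 1.10 and 0.930 CPM in the knockout samples (-0.58 ± 0.223, adjusted p = 0.0311). The groups did not overlap, but the lowest parental value of 1.39 CPM was close to the highest knockout value of 1.29 CPM. The call was lost in DESeq2 (adjusted p = 0.0607), without the low-count filter (0.0526) and without parental sample 1 (0.103), parental sample 3 (0.097), knockout sample 2 (0.0691) or knockout sample 3 (0.134). TNF, which lies 2.19 kilobases from LTB, had 5, 6 and 6 counts in the parental and 3, 8 and 5 counts in the knockout samples. CSF1, the macrophage growth factor, was at 75.6 to 81.5 and 78.8 to 83.0 CPM (0.04, adjusted p = 0.362), and CSF2, or GM-CSF, was at 1.57 to 2.78 and 1.79 to 2.28 CPM (0.01, adjusted p = 0.98).

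**Figure D3:**
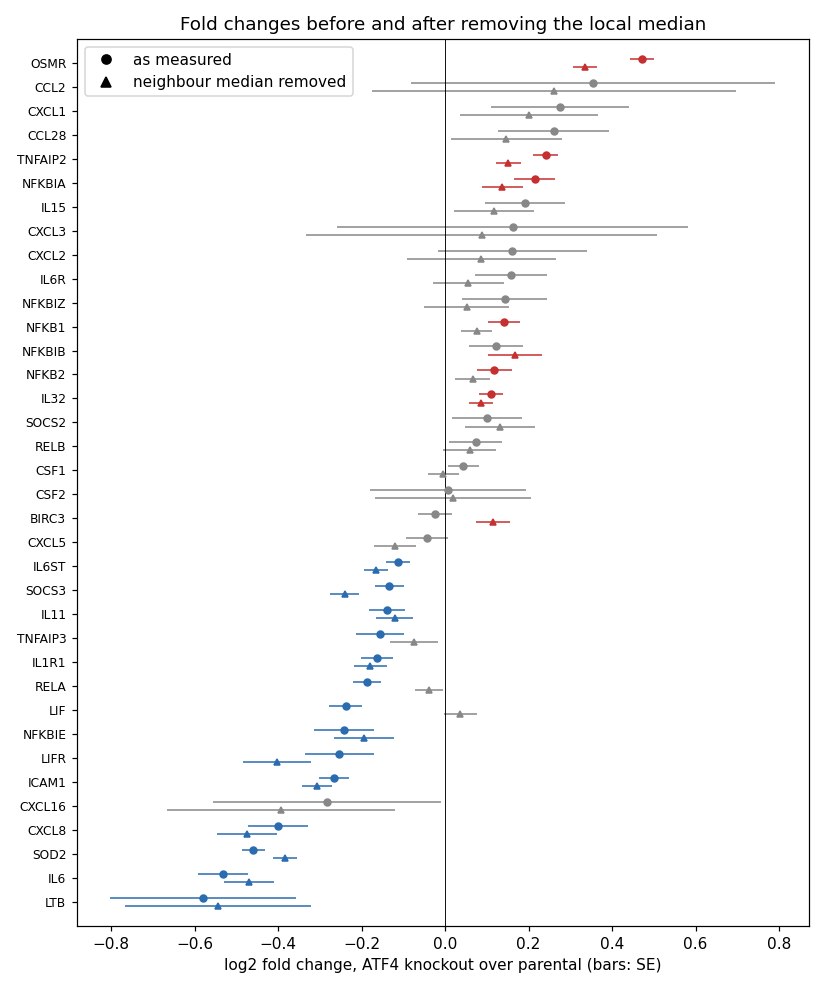
Log2 fold change, ATF4 knockout over parental, of 36 tested genes as measured (circles) and after subtraction of the local median (triangles), with bars for the standard error. Red marks genes called higher, blue those called lower and grey no call. OSMR moved from 0.47 to 0.34, and RELA and LIF lost their calls. IL18, whose knockout level rests on 5 counts, is left out.

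Other genes of the same pathways, listed by role with earlier results of these data known, are given by counts and by examples from the 4 called genes with the smallest p-values. These counts are read against the 21.2% of all tested genes called higher and 20.8% called lower, or 17.9% and 18.2% with the neighbours removed. Of signalling proteins upstream of NF-kB, 8 were higher (19%, near the share of all genes) and 15 lower (35.7%) of 42 tested among 48 listed, with a median log2 fold change of -0.05. With the neighbours removed 7 were higher (16.7%) and 5 lower (11.9%), neither above the share of all genes. MAP3K14, the NF-kB inducing kinase NIK, rose from 13.2, 13.6 and 15.3 CPM to 20.6, 24.8 and 24.0 CPM (log2 fold change 0.72, adjusted p = 2.42e-12). RBCK1, a subunit of the linear ubiquitin ligase complex, fell from 252, 252 and 244 CPM to 184, 193 and 180 CPM (-0.42, adjusted p = 3.39e-18). TAB3 and TAB1, adaptors of the kinase TAK1, were lower by -0.27 (adjusted p = 1.1e-08) and -0.35 (adjusted p = 1.7e-08), and neither was called with the neighbours removed (adjusted p = 0.526 and 0.0979). Further NF-kB family members, nuclear IkB proteins and related regulators gave 4 higher (40%) and 3 lower (30%) of 10, all tested, with a median of 0.15. With the neighbours removed this list gave 2 higher and 1 lower. NKIRAS2, an IkB-interacting Ras-like protein, rose by 0.22 (adjusted p = 6.02e-05), as did BCL3, a nuclear IkB protein that partners p50 and p52 (0.22, adjusted p = 0.0018). CACTIN rose by 0.14 (adjusted p = 0.00806) and NFKBIL1 fell by 0.16 on the log2 scale (adjusted p = 0.0101).

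Of other established NF-kB targets, 2 were higher (6.06%, against 21.2% of all tested genes) and 18 lower (54.5%, against 20.8%) of 33 tested among 40 listed, with a median log2 fold change of -0.14. With the neighbours removed 6 were higher (18.2%, against 17.9%) and 15 lower (45.5%, against 18.2%). SDC4, the heparan sulfate proteoglycan syndecan-4, was at 558, 578 and 531 CPM in the parental and 387, 400 and 404 CPM in the knockout samples (-0.48, adjusted p = 2.54e-20). IER5, an immediate early gene, was lower by -0.64 (adjusted p = 1.42e-14), RCAN1, a calcineurin inhibitor, by -0.50 (adjusted p = 8.6e-12), and BCL2L1, which encodes the survival factor BCL-XL, by -0.25 (adjusted p = 1.01e-10). The 2 higher genes were PLAU and NAMPT. In gp130 and JAK-STAT signalling 5 were higher (20.8%) and 7 lower (29.2%) of 24 tested among 28 listed, with a median of -0.01, so the share called higher was near that of all genes. With the neighbours removed 6 were higher and 6 lower. PIAS3, an inhibitor of STAT3, rose by 0.33 (adjusted p = 5.07e-06), and the kinase JAK1 rose by 0.15 (adjusted p = 1.45e-05), while PTPN11, the phosphatase SHP2, changed by -0.16 (adjusted p = 9.6e-06). PIAS3, JAK1 and PTPN11 kept their calls with the neighbours removed.

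Of 34 further IL-1 family, interleukin receptor and inflammasome genes, 18 were tested, with 3 higher (16.7%, against 21.2% of all tested genes) and 7 lower (38.9%, against 20.8%) and a median log2 fold change of -0.23. With the neighbours removed 1 was higher and 6 were lower. IL7R, the IL-7 receptor, was at 2.51, 2.80 and 4.23 CPM in the parental and 1.26, 1.14 and 0.867 CPM in the knockout samples (-1.55, adjusted p = 7.06e-09). CASP4, the caspase that senses cytosolic lipopolysaccharide, changed by -0.66 (adjusted p = 1.18e-14) and IL13RA1 by -0.53 (adjusted p = 1.21e-18). IL17RA changed by -0.32 (adjusted p = 8.58e-11), and by 0.01 with the neighbours removed. Among 47 other chemokines, chemokine receptors and CSF receptors 5 had enough reads to be tested, too few to set against the share of all genes, and 2 were higher. CSF1R, the receptor of CSF1 and a gene also listed as a leukocyte marker, was at 2.74, 3.30 and 3.04 CPM in the parental and 6.37, 6.39 and 6.87 CPM in the knockout samples (1.11, adjusted p = 5.55e-11). CX3CL1, fractalkine, rose by 0.18 (adjusted p = 0.0213), with adjusted p = 0.0551 once the neighbours were removed.

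**Figure D4:**
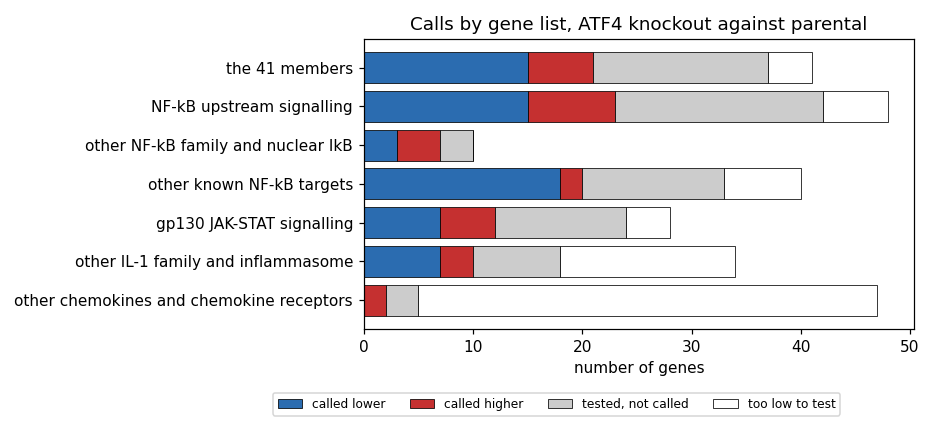
Number of genes called lower (blue), called higher (red), tested without a call (grey) and too low to test (white) in the 41 genes and in 6 lists of related genes. Lower genes outnumber higher ones most in the other known NF-kB targets, with 18 against 2.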

How the data were processed

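RNA was sequenced from 6 samples of RCC4 cells, 3 parental and 3 ATF4 knockout, with a stranded poly(A) kit per the labels. The deposited values are raw counts of reads per gene, which the authors made, by the submitters' processing notes, with bcl2fastq 2.20, cutadapt, STAR and HTSeq on GRCh38. The sources used here give neither the annotation release nor the strand setting, so overlapping genes on opposite strands and close paralogs are uncertain. The paper read for style covers mouse kidney, so the test was chosen as usual for counts.

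Symbols came from a gene name table for 60370 of 60683 identifiers and from GENCODE 29 for 289 more. GENCODE 29 gave positions and exon lengths. Genes were filtered with filterByExpr, scaled by TMM and compared in R 4.3.3 with edgeR 4.0.16 (quasi-likelihood F test, robust, no replicate term). Every adjusted p in the text is a Benjamini-Hochberg value over all tested genes, from edgeR unless another tool is named, and fold changes are knockout over parental. Standard errors were taken as the absolute log2 fold change over the square root of F. Values after removal of neighbours used the median of 50 tested genes on each side of the same chromosome as an offset, and their errors leave out that of the median. Alternatives were DESeq2 1.42.0, limma-voom (limma 3.58.1), DESeq2 size factors, total counts, TMM without the listed genes, no low-count filter, at least 1 CPM in at least 3 samples, a replicate block, and leaving out each sample. The scripts were tested on simulated counts.

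The 41 genes and all lists were chosen with earlier results of these data known. All 41 were to be named, those called with every sample's value, and the 4 called genes of smallest p in each related list. Some genes that these rules cover are not reported here. CD3E and other defining leukocyte markers were named as absent, PLAU and NAMPT because they were the 2 higher targets, SIRT2, WTAP, RICTOR, MED11 and IL6-AS1 as overlapping genes. Motifs and printed windows were chosen after the values were seen. Promoter windows were to be shown for the 3 largest called changes in each direction. IL18, CCL2, CSF1, CXCL16, IL15, LIF, NFKBIE, RELB and SOCS2 had no window here, and of the others only NFKBIA, which had a match and no annotated exon of the gene, is printed whole. Protein sequences were not used here.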

Additional observations from a re-analysis of the deposited data

How the results depend on the processing

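Of the 37 tested genes, 19 kept their direction and their side of the threshold under each of the 15 alternatives that could test them. Called genes among them were SOD2, ICAM1, TNFAIP2, IL6, OSMR, CXCL8, NFKBIA, IL1R1 and IL32. The count also takes in genes that stayed without a call, so it is not a number of stable differences. IL18 is in this count, but it passed the filter through the parental samples alone, so it says nothing about stability. The strict filter left 33 of the 37 to test. The median log2 fold change of the tested genes was close to 0 throughout, at 0.034 with total counts, -0.004 without the low-count filter, 0.040 with limma-voom, 0.037 with the neighbours removed and -0.047 to 0.047 when 1 sample was left out. With the neighbours removed, 12 of 42 upstream signalling genes, 3 of 10 on the further NF-kB family list and 1 of 5 other chemokines and receptors were called. That fit called 5531 of all 15321 tested genes. DESeq2 also called 1 of the other chemokines and receptors, and 5788 of all tested genes. Leaving out 1 sample gave 4 to 6 calls in the further NF-kB family list, with 4 without parental sample 2. Among the other chemokines and receptors it gave 1 to 2, with 1 without parental sample 3 or knockout sample 1 or 2. Over all genes these fits called 5594 to 6102 of 15602 to 15661 tested. Directions turned for genes near 0 and for LIF, which was called lower as measured (-0.238, adjusted p = 2.58e-06). BIRC3 stood at 0.002 with total counts, and at 0.114 with the neighbours removed, where it was called higher (adjusted p = 0.0239). In that fit LIF stood at 0.037 (adjusted p = 0.493) and CSF1 at -0.004. When 1 sample was left out, CXCL3 ranged from -0.129 to 0.628, CXCL5 from -0.09 to 0.007 and CSF2 from -0.165 to 0.258. The causes were not tested.

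Replicate numbers in the labels did not pair the samples, since same-numbered samples deviated from their group means with correlations of -0.0137, 0.0322 and -0.00559. With the replicate number as a block, 7 genes were higher and 15 lower, the median was 0.021, and NFKBIZ was the gene whose call changed (adjusted p = 0.00147). Over all 15321 tested genes that fit called 3224 higher and 3181 lower. At these depths IL1A, IL1B, TNF and CCL20, with 0 to 8 counts per library, could not be compared.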
